A study of Mus musculus with 9 samples.

Results

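Chemokine receptors are cell surface receptors that guide immune cells along gradients of small secreted proteins, and the 8 described here were taken from the deposited table by gene symbol. They are Cx3cr1, Ccr1, Ccr2, Ccr6, Ccr8, Ccrl2, Cxcr4 and Cxcr6, and all 8 were found among its 18571 genes. RNA came from microglia, the resident macrophages of the brain, captured from papain-digested cortex and hippocampus with an antibody to CD45, a surface protein that all white blood cells carry. There were 3 groups of 9-month-old mice on a C57BL6/j background with 3 libraries each, namely wild type (WT), APP/PS1, an amyloid model that carries human disease transgenes, and APP/PS1:Cx3cr1-CreER:Cx43-flox/flox, labelled ACF. The treatment field of every group's labels gives tamoxifen by gavage at 0.1 mg/g on 5 days at 8 months of age, so WT and APP/PS1 are listed with it although they lack the recombinase. The connexin gene Gja1 (Cx43) is floxed in the ACF group alone. CreER is a recombinase that tamoxifen activates, and in ACF it is driven by Cx3cr1, a gene that monocytes and border macrophages use as well as microglia. The labels do not say whether ACF mice carried 1 or 2 copies of the recombinase allele, whether animals were pooled, or which sex they were.

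Most of these receptors signal through inhibitory G proteins that activate phosphoinositide 3-kinase and small GTPases and so turn the cell towards the ligand. Cx3cr1 is the receptor for fractalkine (Cx3cl1), which neurons display, and in the brain it is a hallmark of microglia. Ccr2 brings monocytes out of the bone marrow and into tissue, Cxcr4 retains cells where its ligand Cxcl12 is made, and Ccrl2 is an atypical receptor that holds chemerin (Rarres2) without signalling like the others.

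Of the 8 genes, 6 lie on mouse chromosome 9 (RefSeq gene table, GRCm38.p6, the build the submitters' processing notes name). Cx3cr1 is at chr9:120048683-120068296 on the minus strand, and Ccr8 is the next measured gene, at chr9:120092133-120094906 on the plus strand, 23.8 kb from it. Ccrl2 is at chr9:111054834-111057518, Cxcr6 at chr9:123806477-123811754, Ccr1 at chr9:123962126-123968692 and Ccr2 at chr9:124101918-124109140. Cxcr4 is at chr1:128588199-128592299 and Ccr6 at chr17:8236041-8258519. The 250 bases before the start of 3 of them are shown, from RefSeq promoters of GRCm38.p6 in each gene's own direction. They are Cx3cr1, the locus that drives the recombinase, Ccrl2, the other receptor with a high level, and Ccr1, a low receptor with a motif match. Capitals mark matches to 4 motifs searched on both strands, GAGGAA (the core bound by PU.1, a factor of myeloid cells), TGANTCA (AP-1), ACGTG (the hypoxia element) and TTGCNNAA (C/EBP).
Cx3cr1, chr9:120068297-120068546, minus strand: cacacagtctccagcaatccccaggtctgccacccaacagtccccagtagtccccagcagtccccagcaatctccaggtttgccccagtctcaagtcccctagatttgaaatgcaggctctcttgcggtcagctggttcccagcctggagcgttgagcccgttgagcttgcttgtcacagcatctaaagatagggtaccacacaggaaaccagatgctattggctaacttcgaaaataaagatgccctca
Ccrl2, chr9:111057519-111057768, minus strand: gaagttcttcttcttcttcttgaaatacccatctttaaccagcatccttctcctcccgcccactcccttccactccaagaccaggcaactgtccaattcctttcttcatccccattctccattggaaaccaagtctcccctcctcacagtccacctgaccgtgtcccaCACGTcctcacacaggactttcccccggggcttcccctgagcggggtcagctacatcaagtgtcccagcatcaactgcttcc
Ccr1, chr9:123968693-123968942, minus strand: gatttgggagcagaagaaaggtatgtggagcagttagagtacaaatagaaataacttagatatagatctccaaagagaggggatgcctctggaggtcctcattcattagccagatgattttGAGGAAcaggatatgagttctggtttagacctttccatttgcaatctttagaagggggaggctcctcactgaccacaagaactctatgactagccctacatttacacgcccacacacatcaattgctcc
Among 32851 promoter windows of the same length, 23.3% held GAGGAA, 6.75% TGANTCA, 16.6% ACGTG and 9.56% TTGCNNAA, and no match overlapped another in the 3 windows shown. Cx3cr1 had none of the 4 motifs in this window, Ccrl2 had ACGTG on the reverse strand, and Ccr1 had GAGGAA. The windows of Ccr2, Ccr8, Cxcr4 and Cxcr6 had no match either. RefSeq gives Ccrl2 a further pair of starts, whose windows overlap and hold the same ACGTG match. It gives Ccr6 a pair of starts, one window with GAGGAA and the other with ACGTG.

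Total estimated counts ran from 18907681 to 19565354 per library. The 9 microglia markers used here (among them P2ry12, Tmem119 and Sall1) summed to between 12412 and 14013 CPM (counts scaled to the size of the library) in every library. Gja1 had 682, 642 and 716 counts in WT, 727, 688 and 788 counts in APP/PS1, and 514, 484 and 539 in ACF, so the ACF libraries were lowest but far from 0. Gja1 is mainly an astrocyte gene, and 8 astrocyte markers summed to 457 to 465.5 CPM in WT, 653 to 673 in the APP/PS1 group and 501 to 512 in ACF; the deleted part of the gene is not resolved by a count over the whole gene. The Y-linked gene Ddx3y had 4137 to 4538 counts in the WT and APP/PS1 libraries and 0, 1 and 2 in the ACF libraries, and Kdm5d and Eif2s3y had at most 5 counts in any ACF library. The ACF genotype and the absence of Y-linked expression therefore cannot be told apart in any value below that involves ACF. Libraries of a group differed little, with a biological coefficient of variation of 3.14%, and nothing in the labels says that they came from separate animals, so adjusted p-values measure the spread between these libraries, which may be technical.

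Per unit of transcript length, 2 of the 8 receptors made up most of the receptor RNA. In WT, Cx3cr1 was at 686 FPKM ± 11.2 (SD, n = 3) and Ccrl2 at 356 FPKM ± 6.98, which together were 62.4% and 32.4% of the summed FPKM of the 8 genes. Next in WT came Cxcr4 at 26.1 FPKM ± 0.769, Ccr1 at 16.2 ± 0.306, Ccr2 at 10.4 ± 0.475, Cxcr6 at 3.72 ± 0.141, Ccr6 at 0.947 ± 0.170 and Ccr8 at 0.347 ± 0.153, and no neighbours in this order overlapped between libraries. In APP/PS1, Cxcr6 (4.50 FPKM ± 0.179) and Ccr2 (4.29 FPKM ± 0.522) overlapped. In ACF the share of Cx3cr1 was 44.1% and that of Ccrl2 41.7%, their levels still not overlapping (358 FPKM ± 8.69 and 339 FPKM ± 5.12), while Ccr6 and Ccr8 overlapped.

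**Figure D1:**
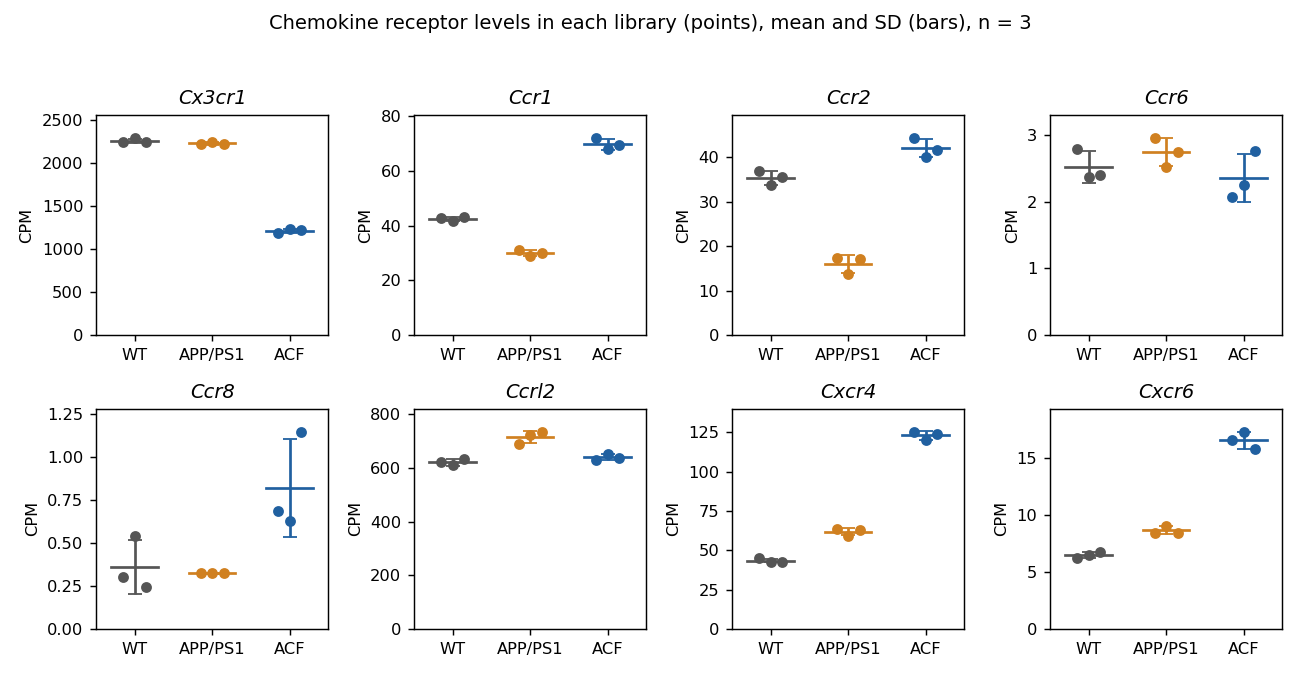
Normalised level (CPM, vertical axis from 0) of each of the 8 receptors in the 9 libraries by group, with the mean and SD (n = 3). Cx3cr1 is at 1186 to 1231 CPM in ACF and at 2223 to 2288 CPM elsewhere, Ccr1 and Ccr2 are lowest in APP/PS1 and highest in ACF, and Cxcr4 and Cxcr6 are lowest in WT and highest in ACF.

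Cx3cr1 was about equal in WT and APP/PS1 and far lower in ACF. Its level was 2247, 2288 and 2245 CPM in WT libraries 1 to 3, 2223, 2247 and 2223 CPM in APP/PS1, and 1186, 1231 and 1226 CPM in ACF. All ACF libraries lay far below the others, and the WT and APP/PS1 libraries overlapped. The ACF mean was 54.4% of the APP/PS1 mean and 53.7% of the WT mean. The log2 change was -0.88 against APP/PS1 (SE 0.03, edgeR quasi-likelihood adjusted p 9.07e-21) and -0.90 against WT (SE 0.03, edgeR adjusted p 9.34e-21), and both kept their direction and stayed past the threshold under every alternative run, with ranges of -0.93 to -0.61 and -1.03 to -0.84. APP/PS1 against WT gave -0.02 (SE 0.02, edgeR adjusted p 0.545), a difference whose sign and call depended on the scaling. It was 0.09 with offsets for GC content and transcript length (edgeR adjusted p 0.000476) and -0.16 with plain library totals (edgeR adjusted p 3.75e-06). The TPM values gave -0.41 (limma adjusted p 6.12e-08), where the median over all tested genes was -0.35. In RNA of a whole preparation, fewer cells that express a gene and less RNA of it per cell cannot be told apart. Cx3cr1 is also the locus of the recombinase in ACF and in no other group. The part of that allele in the lower Cx3cr1 level was not tested, and it cannot be told apart from the other features of ACF.

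The other microglia markers did not fall to the same extent in ACF. Of the 9 markers, 4 were lower, 2 higher and 3 not past the threshold in ACF against APP/PS1 in the edgeR fit. Over all tested genes, 27.7% were lower and 27.3% higher. The split of the markers was 5 higher and 3 lower on TPM and 1 higher and 5 lower with GC and length offsets. Their median in the edgeR fit was -0.09, with values from -0.50 for Gpr34 to 0.23 for Csf1r. P2ry12, a nucleotide receptor, was at -0.38, and Sall1, a transcription factor of microglia, at 0.07 without passing. On TPM, Siglech, Tmem119 and P2ry13 had the opposite sign, and P2ry13 also with the GC and length offsets. Set against the summed CPM of the 9 markers in the same library, Cx3cr1 was at 181 ± 3.23 in the WT group, at 161 ± 2.53 in APP/PS1 and at 91.3 ± 1.95 in ACF (SD, n = 3), in CPM of Cx3cr1 per 1000 CPM of markers. On this scale ACF differed from APP/PS1 by -43.4%, and APP/PS1 from WT by -10.8%, where the marker sum itself was higher in APP/PS1 (13725 to 14013 CPM) than in WT (12412 to 12583 CPM). The markers moved in different directions between WT and APP/PS1, with Fcrls, Gpr34 and P2ry12 higher and Csf1r lower. With each of the 9 left out in turn, the ratio differed by -36.2% (without Csf1r) to -0.847% (without Fcrls) in APP/PS1 against WT and by -45.6% (without P2ry12) to -36.1% (without Csf1r) for ACF against APP/PS1.

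**Figure D2:**
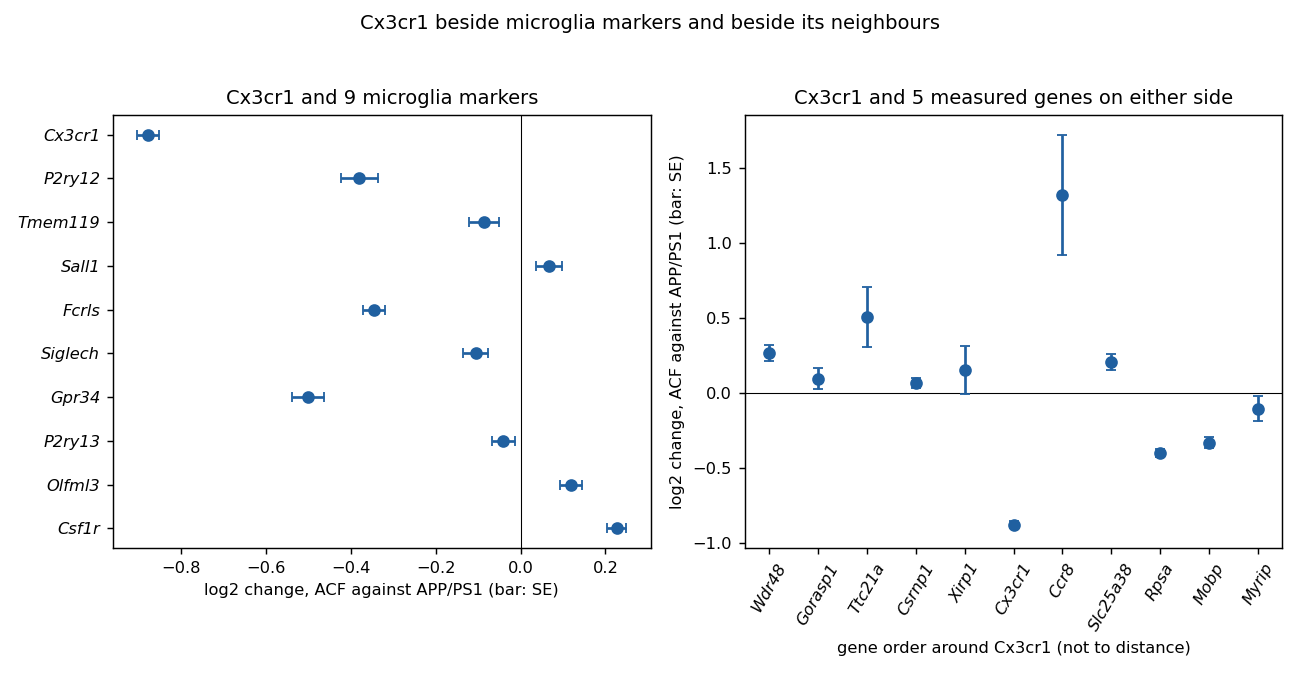
Log2 change in ACF against APP/PS1 with its SE for Cx3cr1 beside 9 microglia markers (left) and beside the 5 measured genes on either side of it in chromosome order (right, not drawn to distance). Cx3cr1 at -0.88 is below every marker and every neighbour plotted, and Ccr8 at 1.32 has the widest error and passed the filter on low counts only through ACF.

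Of the genes around Cx3cr1, some were higher and some lower in ACF than in APP/PS1. The 5 measured genes on one side were Xirp1, Csrnp1, Ttc21a, Gorasp1 and Wdr48, and on the other Ccr8, Slc25a38, Rpsa, Mobp and Myrip. In ACF against APP/PS1, Wdr48 (log2 change 0.27), Ttc21a (0.50) and Slc25a38 (0.21) were higher, and Rpsa, a ribosomal protein (-0.40), and Mobp, a myelin gene of oligodendrocytes (-0.33), were lower in the edgeR fit. Another 4 did not pass, at -0.11 for Myrip to 0.15 for Xirp1. Over all tested genes, 27.3% were higher and 27.7% lower in this comparison. Ccr8 was at 1.32, a call favoured by the filter on low counts and lost without ACF library 3.

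Across the 9 libraries, the genes whose log2 CPM followed Cx3cr1 most closely, among 9163 tested genes with a mean of at least 10 CPM, were Ddx3y (Pearson r 0.999), Kdm5d (0.998), Atp8a2 (0.998), Uty (0.997) and Arf2 (0.996). Ddx3y, Kdm5d and Uty are Y-linked. These 9 libraries form 3 tight groups, so a gene with the same group apart gives a high r, and the values are a description of that shape only.

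Ccrl2, the other receptor with a high level, was 620, 609.5 and 634 CPM in WT, 689, 721.5 and 733 CPM in APP/PS1, and 629, 651 and 638.5 CPM in ACF. In CPM the APP/PS1 libraries lay above both other groups, and WT and ACF overlapped. In FPKM APP/PS1 (359 to 380) overlapped WT (349 to 363), and ACF (334 to 344) lay below both. The log2 change was 0.20 in APP/PS1 against WT (SE 0.03, edgeR adjusted p 1.13e-06), a sign that reversed on TPM (-0.20, limma adjusted p 7.17e-05) and a call that was lost on FPKM (0.06, limma adjusted p 0.088), and -0.16 in ACF against APP/PS1 (SE 0.03, edgeR adjusted p 3.88e-05), where TPM gave 0.03 (limma adjusted p 0.351). On TPM the median over all tested genes was itself -0.35 and 0.15 in these comparisons. Cmklr1, the signalling receptor for chemerin, was 0.18 in APP/PS1 against WT and -0.11 in ACF against APP/PS1, both past the threshold in the edgeR fit and both reversed on TPM. Their ligand Rarres2 was low, at 4.67, 6.58 and 3.10 CPM on average in WT, APP/PS1 and ACF. Ntan1 (Pearson r 0.994) and Myl12a (0.987) were closest to Ccrl2 in pattern.

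Ccr1 and Ccr2, receptors that monocytes and other blood leukocytes use, were both lowest in APP/PS1 and highest in ACF. Ccr1, which binds Ccl3, Ccl5, Ccl6 and Ccl9, was at 42.7, 41.6 and 43.2 CPM in WT, 31.2, 29.1 and 29.9 CPM in APP/PS1, and 71.8, 68.0 and 69.4 CPM in ACF. Its 3 groups did not overlap. Its log2 changes were -0.50 in APP/PS1 against WT (SE 0.05, edgeR adjusted p 2.02e-09), 1.21 in ACF against APP/PS1 (SE 0.05, edgeR adjusted p 6.62e-18) and 0.71 in ACF against WT (SE 0.04, edgeR adjusted p 2.43e-13), with the same sign and call under every alternative run. Ccr1 and its close copy Ccr1l1 may share reads, and how the authors counted such reads is not given in the sources used here.

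Ccr2, the receptor for Ccl2, Ccl7 and Ccl12, was at 36.9, 33.8 and 35.5 CPM in WT, 17.4, 13.8 and 17.0 CPM in APP/PS1, and 44.2, 40.2 and 41.7 CPM in ACF. The groups did not overlap, and the gap between WT and ACF was much smaller than the gap of either to APP/PS1. The log2 changes were -1.14 (SE 0.07, edgeR adjusted p 1.79e-13), 1.39 (SE 0.07, edgeR adjusted p 2.32e-15) and 0.25 (SE 0.06, edgeR adjusted p 0.00101) in the same order. The last of these no longer passed on FPKM with a pseudocount of 1 (0.14, limma adjusted p 0.129) or 0.1 (0.15, limma adjusted p 0.156) or on TPM (0.055, limma adjusted p 0.545).

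The summed monocyte and neutrophil markers were likewise lowest in APP/PS1 and highest in ACF. The 7 monocyte markers (Ly6c2, Plac8, Chil3, Fn1, Vcan, Ms4a4c and F13a1) summed to 699 to 720.2 CPM in WT, 294 to 314 CPM in APP/PS1 and 927 to 937.5 CPM in ACF, with 6 of 7 past the threshold as lower in APP/PS1 against WT and 6 of 7 as higher in ACF against APP/PS1. In ACF against WT, Ly6c2, Plac8 and Chil3 were higher, Fn1 and F13a1 lower and the other 2 not past the threshold, and Chil3 carried the higher sum. Chil3 was at 197 to 208 CPM in WT and 429 to 449 CPM in ACF, while the other 6 markers summed to 497 to 512 CPM and 489 to 502 CPM. The 8 neutrophil markers (S100a8, S100a9, Ngp, Ly6g and others) summed to 2541 to 2575, 893 to 912 and 8287 to 8439 CPM, with 8 of 8 lower in APP/PS1 against WT and 8 of 8 higher in ACF against APP/PS1, and no marker of either list was at 0 in any group. Over all tested genes, 32.0% were lower in APP/PS1 against WT and 27.3% higher in ACF against APP/PS1. Set against the summed monocyte markers, Ccr2 was at 50.04 ± 2.34 in the WT group, at 52.6 ± 5.17 in APP/PS1 and at 45.1 ± 2.16 in ACF (SD, n = 3), per 1000 CPM of markers. Without Chil3 the order changed, to 70.2 ± 2.74 in WT, 61.1 ± 5.76 for APP/PS1 and 84.9 ± 3.52 in ACF. With each of the 7 left out in turn, the ratio differed by -12.9% (without Chil3) to 23.2% (without Fn1) in APP/PS1 against WT and by -35.6% (without Fn1) to 38.9% (without Chil3) for ACF against APP/PS1. With all 7 markers the means differed by 5.15% in APP/PS1 against WT and by -14.3% for ACF against APP/PS1 (exact two-sided permutation p 0.5 and 0.2, where 0.1 is the smallest possible). Ccr1 did not keep a steady ratio to either list, with 60.1, 98.7 and 74.8 per 1000 monocyte marker CPM and 16.7, 33.2 and 8.35 per 1000 neutrophil marker CPM in WT, APP/PS1 and ACF. In all 21 such ratios were computed in 3 comparisons, 63 tests in which none can pass after adjustment, so the ratios are a description. The part of these cells in the receptor differences was not tested.

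The genes closest in pattern to Ccr1 over the 9 libraries were S100a9 (Pearson r 0.998), Acod1, Slpi, Ly6g and Anxa1 (0.997 each), of which S100a9, Slpi and Ly6g are abundant in neutrophils. For Ccr2 they were Klf4 (0.996), Gsr (0.995), Cytip, Samhd1 and Resf1 (0.992 each).

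**Figure D3:**
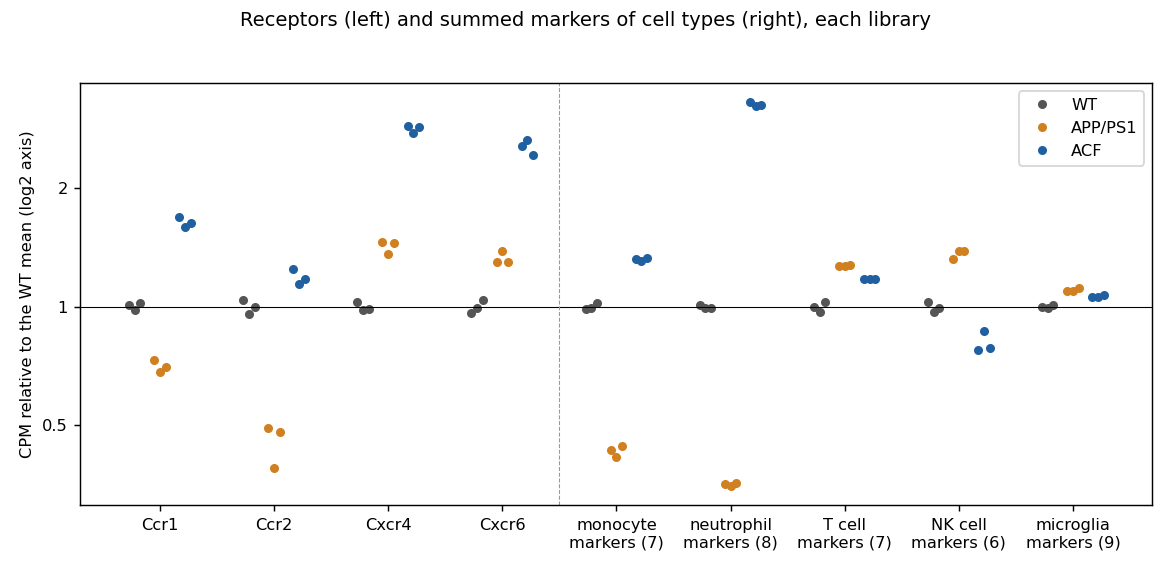
Level of Ccr1, Ccr2, Cxcr4 and Cxcr6 (left) and summed CPM of marker lists of 5 cell types (right) in each library, relative to the WT mean, on a log2 axis. Ccr2 (0.454 of the WT mean in APP/PS1 and 1.19 in ACF) and the monocyte markers (0.431 and 1.32, or 0.52 and 0.982 without Chil3) are low in APP/PS1, while Cxcr4 (1.43 and 2.83) and Cxcr6 (1.33 and 2.55) are above WT in both groups.

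Cxcr4 and Cxcr6 were lowest in WT, higher in APP/PS1 and highest in ACF. Cxcr4 was at 44.8, 42.7 and 42.8 CPM in WT, 63.4, 59.3 and 63.2 CPM in APP/PS1, and 125, 120.0 and 124 CPM in ACF. The groups did not overlap, and the ACF mean was 2.83 times the WT mean. Its log2 change was 0.51 in APP/PS1 against WT (SE 0.04, edgeR adjusted p 1.46e-10), 0.99 in ACF against APP/PS1 (SE 0.04, edgeR adjusted p 1.61e-17) and 1.502 in ACF against WT (SE 0.04, edgeR adjusted p 5.47e-21). All 3 kept their sign and call under the alternatives run, although the first ranged from 0.12 on TPM to 0.55 among them.

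Cxcr6, the receptor for the membrane-bound chemokine Cxcl16, found on T cells and natural killer (NK) cells, was at 6.24, 6.45 and 6.76 CPM in WT, 8.41, 9.04 and 8.46 CPM in APP/PS1, and 16.6, 17.3 and 15.8 CPM in ACF. Again no groups overlapped. The log2 changes were 0.41 (SE 0.09, edgeR adjusted p 4.54e-04), 0.94 (SE 0.08, edgeR adjusted p 1.50e-10) and 1.35 (SE 0.08, edgeR adjusted p 2.55e-13) in the same order, and the first was 0.02 on TPM (limma adjusted p 0.767). Cxcr4 and Cxcr6 followed each other over the 9 libraries (Pearson r 0.990, a description), with Lmnb1 (0.998), Edem2 (0.997) and Lilrb4a (0.996) nearest to Cxcr4, and Ptpn21 (0.997), Lilrb4a (0.995) and Slc16a3 (0.993) among those nearest to Cxcr6.

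In APP/PS1 against WT, 5 of 7 T cell markers were higher and 2 lower (Cd4 and Il7r), and 3 of 5 tested NK cell markers were higher and none lower, or 2 higher and 2 lower with library totals and on TPM. Over all tested genes, 26.9% were higher and 32.0% lower there, and 27.3% higher and 27.7% lower in ACF against APP/PS1. The 7 T cell markers found in the table (Cd3d, Cd3e, Cd3g, Cd4, Cd8a, Cd8b1 and Il7r) summed to 50.5 to 53.6 CPM in WT, 66.03 to 66.4 in APP/PS1 and 61.4 to 61.6 in ACF, with 4 lower and 2 higher in ACF against APP/PS1. The 6 NK cell markers summed to 16.2 to 17.2, 21.96 to 23.3 and 12.9 to 14.5 CPM, with 4 of 5 tested lower in that comparison, and no marker of either list was at 0 in all libraries of a group. Klrb1c carried most of the higher NK cell sum in APP/PS1, at 1.04 CPM on average in WT and 6.85 CPM in APP/PS1. Gzma and Klre1 were also higher in APP/PS1 than in WT, while Ncr1, Prf1 and Nkg7 had lower means. Per 1000 CPM of T cell markers, Cxcr6 was at 125 ± 4.26 in the WT group, at 130.5 ± 5.52 in APP/PS1 and at 269 ± 11.6 in ACF (SD, n = 3). Per 1000 CPM of NK cell markers it was at 389 ± 23.7, 379 ± 11.9 and 1226 ± 49.9. The WT and APP/PS1 means differed by 4.8% and -2.54% on these scales. Neither ratio was repeated with a marker left out, so how far they rest on single markers such as Klrb1c was not tested. Cxcr4, which neutrophils and B cells also carry, was at 17.0, 68.5 and 14.7 per 1000 neutrophil marker CPM. The B cell markers (8 genes) summed to 44.8 to 48.2, 19.9 to 22.01 and 29.4 to 30.9 CPM, lower in APP/PS1 and ACF than in WT. Which cells the Cxcr4 and Cxcr6 reads came from was not tested.

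Ccr6 and Ccr8, both known from lymphocytes, were near the lower end of what these libraries measured. Ccr6 had 56, 48 and 49 counts in WT, 54, 47 and 51 counts in APP/PS1, and 39, 43 and 53 in ACF. The groups overlapped throughout, and no comparison passed, with log2 changes of 0.12 (SE 0.17), -0.22 (SE 0.17) and -0.09 (SE 0.17) and edgeR adjusted p-values of 0.558, 0.302 and 0.685; the first was -0.02 with library totals and -0.16 on TPM.

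Ccr8 had 6, 11 and 5 counts in WT, 6, 6 and 6 counts in APP/PS1, and 13, 12 and 22 in ACF. It passed the filter on low counts only through ACF, where all 3 libraries reached 0.518 CPM against 1 in WT and none in APP/PS1, so a call in its comparisons with ACF was favoured by the filter itself. The log2 changes were 1.32 in ACF against APP/PS1 (SE 0.40, edgeR adjusted p 0.00611) and 1.17 in ACF against WT (SE 0.38, edgeR adjusted p 0.0126), and -0.15 in APP/PS1 against WT (SE 0.47, edgeR adjusted p 0.79). Without ACF library 3 neither call held (1.01, adjusted p 0.065, and 0.85, adjusted p 0.117), and the second was also lost without WT library 1 (1.05, adjusted p 0.0519) or WT library 3 (0.95, adjusted p 0.0712), by edgeR in each case. The DESeq2 Wald test gave 1.21 for ACF against WT (adjusted p 0.0723). Without WT library 2 the difference between APP/PS1 and WT had the opposite sign (0.25, edgeR adjusted p 0.726).

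**Figure D4:**
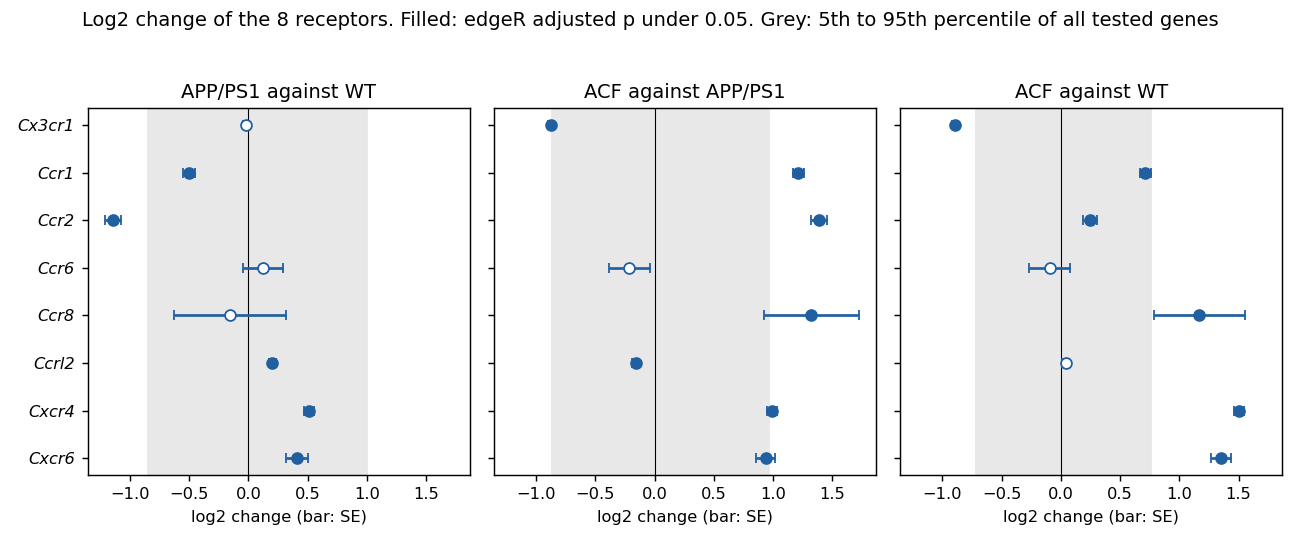
Log2 change with its SE (horizontal axis) of the 8 receptors in each of the 3 comparisons, filled where the edgeR adjusted p is under 0.05, over a grey band from the 5th to the 95th percentile of all tested genes (-0.86 to 0.96 in ACF against APP/PS1). Ccr2 lies below the band in APP/PS1 against WT, Cx3cr1 lies below it in both comparisons with ACF, Ccr1, Ccr2, Cxcr4 and Ccr8 lie above it in ACF against APP/PS1, and Cxcr4, Cxcr6 and Ccr8 lie above it in ACF against WT. Ccr8 passed the filter on low counts only through ACF.

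Counted together, 5 of the 8 receptors passed the threshold in APP/PS1 against WT (3 higher, 2 lower), where 59.0% of all 14696 tested genes passed (26.9% higher, 32.0% lower). In ACF against APP/PS1, 7 of 8 passed (5 higher, 2 lower), or 6 of 7 without Ccr8, against 55.0% of all genes (27.3% higher, 27.7% lower). In ACF against WT, 6 of 8 passed (5 higher, 1 lower), or 5 of 7 without Ccr8, against 47.7% of all genes (24.7% higher, 23.0% lower). Over all tested genes the groups did not overlap in CPM for 63.5%, 59.7% and 54.6% in the 3 comparisons. The median log2 changes of the 7 without Ccr8 were 0.12, 0.94 and 0.25, beside medians of -0.04, -0.01 and -0.01 over all tested genes. The comparisons share libraries in pairs and the receptors were chosen with results of these data known, so the counts are a description. The split by direction moved with the scaling in APP/PS1 against WT, to 1 higher and 4 lower on TPM and 2 higher and 3 lower on FPKM, and in ACF against WT to 4 higher and 2 lower on TPM.

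Most ligands of these receptors that were tested were lower in ACF than in APP/PS1. Of 14 ligands, 12 were tested, and 11 of the 12 were lower in the edgeR fit and none was higher, with a median of -0.64 against -0.01 for all tested genes, of which 27.7% were lower and 27.3% higher. With library totals, TPM or GC and length offsets, 9 to 11 were lower and none higher. Markers of some other cells were lower beside them, while those of neutrophils (8 of 8), monocytes (6 of 7) and B cells (5 of 7 tested) were higher. All 7 border macrophage markers were lower in the edgeR fit (Ms4a7 at -1.46 and Pf4 at -1.39 furthest), 6 with library totals, and 4 lower and 1 higher on TPM, with sums of 688 to 694 CPM in APP/PS1 and 584 to 592.5 CPM in ACF, as were 7 of 8 astrocyte markers (6 lower and 1 higher on TPM), and their part in the ligand values was not tested. Among the ligands, Ccl8 (log2 change -1.73, SE 0.07), Ccl7 (-1.26, SE 0.04), Rarres2 (-1.09, SE 0.14) and Ccl6 (-1.06, SE 0.03) moved furthest, with edgeR adjusted p-values between 1.40e-07 and 9.63e-22. The ligand of Cx3cr1, Cx3cl1, was at 8.74, 9.36 and 9.16 CPM in APP/PS1 and 6.89, 6.54 and 7.24 CPM in ACF, without overlap (log2 change -0.40, SE 0.10, edgeR adjusted p 0.00114). Neurons are a known source of Cx3cl1, and 7 neuron markers summed to 58.0 to 66.1 CPM in APP/PS1 and 39.7 to 43.3 CPM in ACF, with 5 of 7 lower. Cxcl16, the ligand of Cxcr6, did not pass in any comparison (224 to 257 CPM over the 9 libraries) in the edgeR fit, but was lower in APP/PS1 than in WT on TPM (-0.33, limma adjusted p 8.89e-05). Ccl1 and Ccl20, ligands of Ccr8 and Ccr6, had at most 3 counts in any library.

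In APP/PS1 against WT, 8 of the 12 ligands were higher and 1 lower (median 0.28 against -0.04 for all tested genes, of which 26.9% were higher and 32.0% lower). Ccl6, a ligand of Ccr1, was at 86.6, 87.8 and 89.4 CPM in WT, 702, 714 and 715 CPM in APP/PS1, and 345, 340.3 and 340.0 CPM in ACF, a log2 change of APP/PS1 over WT of 3.02 (SE 0.03, edgeR adjusted p 9.83e-31). The ligands Ccl8 (1.05), Ccl7 (0.88) and Ccl12 (0.75) were also higher. Cxcl12, the ligand of Cxcr4, was the lower one, at 122 to 126 CPM in WT, 83.0 to 90.4 CPM in APP/PS1 and 65.3 to 71.03 CPM in ACF (log2 change of APP/PS1 over WT -0.51, SE 0.04, edgeR adjusted p 1.71e-11). The 7 vessel markers, from cells that make Cxcl12, summed to 646 to 666, 591 to 605.5 and 511.5 to 522 CPM. On TPM the values of Ccl2, Ccl3, Ccl5, Ccl9 and Cxcl16 had the opposite sign in APP/PS1 against WT, and 4 ligands were then higher and 6 lower. Against WT, where 23.0% of all tested genes were lower and 24.7% higher, 9 of the 12 were lower in ACF and Ccl6 alone was higher (log2 change 1.96, SE 0.03, edgeR adjusted p 1.97e-26), with 10 lower with library totals and on TPM.

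**Figure D5:**
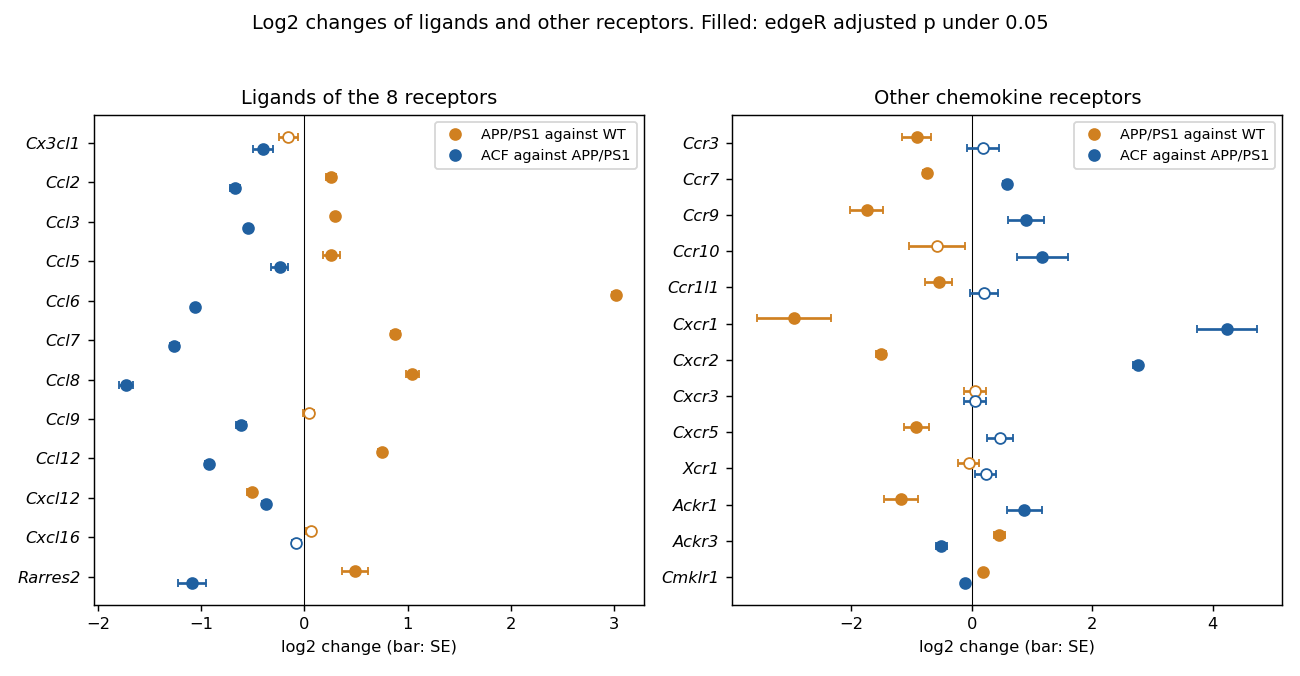
Log2 change with its SE (horizontal axis) of 12 tested ligands (left) and 13 other tested chemokine receptors (right) in APP/PS1 against WT (orange) and ACF against APP/PS1 (blue), filled where the edgeR adjusted p is under 0.05. All blue ligand points are below 0, with Cxcl16 not past the threshold and above 0 on TPM, and Cxcr2 is at -1.50 and 2.76. The values of Cxcr1, with at most 3 counts in each APP/PS1 library, and of Ccr10 are drawn although both passed the filter on low counts only through ACF. The comparisons share the APP/PS1 libraries.

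Of 16 other chemokine receptors, 13 were tested, and in APP/PS1 against WT 8 were lower and 2 higher (Ackr3 and Cmklr1), beside 32.0% lower and 26.9% higher over all tested genes, while on TPM 11 were lower and none higher, with Cmklr1 reversed. Cxcr2, which draws neutrophils to tissue, was at 21.9, 23.9 and 21.6 CPM in WT, 8.96, 8.40 and 6.47 CPM in APP/PS1, and 55.3, 53.4 and 52.2 CPM in ACF. Its log2 changes were -1.50 (SE 0.09, edgeR adjusted p 2.87e-14) for APP/PS1 over WT and 2.76 (SE 0.07, edgeR adjusted p 2.99e-21) in ACF against APP/PS1, beside the neutrophil marker sums given above. Ccr9 (-1.74), Ackr1 (-1.17) and Cxcr5 (-0.92) were also lower in APP/PS1 than in WT. Cxcr1 and Ccr10 passed the filter on low counts only through ACF, like Ccr8, and without them 7 of 11 were lower and 2 higher in APP/PS1 against WT. In ACF against APP/PS1, 6 of 13 were higher and 2 lower (4 and 2 of 11 without them), beside 27.3% higher and 27.7% lower over all tested genes, among them Ccr9 (0.90), Ackr1 (0.87) and Ccr7 (0.58), a receptor that guides dendritic cells and T cells to lymph nodes. Ackr3, the scavenger of Cxcl12, was at 7.36 CPM on average in WT, 10.1 in APP/PS1 and 7.15 in ACF, higher and then lower past the threshold (log2 changes 0.46 and -0.50). Against WT, ACF had 2 of 13 higher and 3 lower (1 and 3 of 11 without them, and 2 higher and 7 lower of 13 on TPM), beside 24.7% higher and 23.0% lower over all tested genes, with Cxcr2 at 1.26 (SE 0.06, edgeR adjusted p 1.24e-15), Ccr9 at -0.84, Ccr3 at -0.73 and Ccr7 at -0.16.

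Genes that carry the signal inside the cell were measured as a list of 21, all tested. In APP/PS1 against WT 14 were lower and 4 higher, with a median of -0.23 against -0.04 for all tested genes, of which 32.0% were lower and 26.9% higher. Gng5, a G protein gamma subunit (1.16), and Rgs10 (0.91) and Rgs1 (0.76), which shorten G protein signals, were higher, and Grk6, a kinase that desensitises receptors, was lower (-0.71). In ACF against APP/PS1, 13 were higher and 4 lower (median 0.13 against -0.01), where 27.3% of all tested genes were higher and 27.7% lower. Grk6 rose by 1.17 (SE 0.04, edgeR adjusted p 2.93e-18), from 38.0 to 39.8 CPM in APP/PS1 to 86.0 to 90.04 CPM in ACF. Rac2, a GTPase of leukocyte movement, rose by 1.04 (SE 0.04, edgeR adjusted p 3.35e-19), from 136.5 to 142 CPM to 276 to 295 CPM, and neutrophils carry much Rac2. The summed neutrophil and monocyte markers given above were also lowest in APP/PS1, and their part in the values of this list was not tested. Rgs10 went the other way (577 to 592 CPM in APP/PS1 and 332 to 340 CPM in ACF, log2 change -0.80, SE 0.03, edgeR adjusted p 5.60e-19), as did Gng5 (-0.58). Against WT, 11 were higher and 6 lower in ACF (24.7% and 23.0% of all tested genes), with Rgs1 (0.59), Gng5 (0.58), Rac2 (0.48) and Grk6 (0.45) furthest, and the split was 6 higher and 7 lower with library totals and 5 higher and 12 lower on TPM.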

How the data were processed

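Poly-A RNA of the 9 libraries was read as single 50-nt reads with DNBSEQ chemistry, as the labels' protocols give. The submitters' processing notes name HISAT, Bowtie2, DESeq2 and GRCm38.p6, without their roles, and the counting program and annotation are not given in the sources used here. Per the file headers the deposited table holds, for each library, an estimated count with decimals, FPKM and TPM values, and a normalised count (a signal scaled by 1 factor per library). The authors' group means were not used.

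Estimated counts were rounded to whole numbers, although the written design had assumed plain counts. The test was edgeR 4.0.16 (quasi-likelihood, TMM, filterByExpr, robust, all 9 libraries in 1 fit, R 4.3.3), with Benjamini-Hochberg adjustment over all 14696 tested genes and a threshold of 0.05. SEs are the fitted log2 change divided by the root of the F statistic. CPM uses TMM-scaled library sizes. Summed markers are sums of CPM. Members, lists and rules were chosen with earlier results of these data known. Named genes are the 8 receptors, their ligands, up to 4 genes per other list and comparison with the largest change past the threshold and a mean of at least 1 CPM, the 5 neighbours on either side of Cx3cr1, the 5 genes closest in pattern to each receptor, of which up to 5 are given, and checks. Ackr3, Cmklr1, Cxcr1, Ccr10 and the single markers given with values fall outside this rule and were chosen after their values were seen.

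Alternatives were DESeq2 size factors, library totals, the DESeq2 1.42.0 Wald test, limma-voom (limma 3.58.1), no filter, a minimum of 10 counts per library, a fit of the 2 groups compared alone, limma on log2 values of FPKM (pseudocount 1 or 0.1) and TPM (pseudocount 1), the replicate number as a block, offsets over 10 bins of GC content and 10 of length (GENCODE mouse, 17906 genes), and leaving out each library. After seeing the data, ratios of Ccr2 and Cx3cr1 to marker sums with each marker left out and counts without Cxcr1 and Ccr10 were added. Gene positions matched for 18517 of 18571 identifiers. The edgeR step was tested on simulated data. Counts of library pairs within a group gave a chi-square of 1.8 to 3.54 per gene on average, so none was counted as a duplicate. The microglia list was written with 1 further marker, which is not reported here and was left out of its counts, sums and ratios, and 1 gene close to Cxcr6 in pattern is not reported either. The T cell genes Trac and Trbc2 were not analysed here. PCR copies were not told apart. Whether counting used strand is not given in the sources used here, so antisense reads cannot be separated.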

Additional observations from a re-analysis of the deposited data

How the results depend on the processing

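The counts of receptors past the threshold stayed within 5 to 6 in APP/PS1 against WT, 6 to 7 in ACF against APP/PS1 and 5 to 7 in ACF against WT over all alternatives run, with 7 or 8 receptors tested. The values that moved across the threshold or changed sign were mostly near 0 or in APP/PS1 against WT. There Cx3cr1 was 0.0017 with DESeq2 size factors and with the DESeq2 Wald test (adjusted p 0.961 and 0.965), 0.017 with only the groups compared (edgeR adjusted p 0.593), -0.16 for library totals (edgeR adjusted p 3.75e-06), -0.16 on FPKM with either pseudocount (limma adjusted p 0.00023 and 0.000213), -0.41 for TPM (limma adjusted p 6.12e-08), and 0.093 with GC and length offsets with or without the replicate block (edgeR adjusted p 0.00127 and 0.000476). Ccr6 was -0.015 with library totals and -0.16 on TPM. Ccrl2 was -0.20 on TPM in APP/PS1 against WT and 0.033 on TPM in ACF against APP/PS1. In ACF against WT it was -0.065 with library totals, -0.072 and -0.073 on FPKM and -0.16 on TPM, the last past the threshold (limma adjusted p 5.91e-04). Ccr8 was 0.25 in APP/PS1 against WT without WT library 2, among -0.37 to 0.25 over the libraries left out. The median over all tested genes was -0.04, -0.01 and -0.01 in the 3 comparisons, against -0.35, 0.15 and -0.17 on TPM, -0.17, 0.018 and -0.12 with library totals, and -0.16, 0.017 and -0.11 on FPKM with a pseudocount of 0.1, and on TPM 14.7%, 75.3% and 19.8% of called genes were higher against 45.7%, 49.6% and 51.9%. Why the scalings differ was not tested.

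Deviations from the group mean correlated between libraries that share a replicate number (0.2 on average, 0.064 to 0.3 over 9 pairs). Between libraries with different numbers they did so less (-0.1 on average, -0.26 to 0.043 over 18 pairs). Every same-number pair thus lay above every other pair, and each of the 9 libraries correlated best with its own number. At least 1 same-number pair was below the level set for a pairing, so the main fit has no replicate term. The biological coefficient of variation was 0.988% with the replicate block and 3.14% without it. With the replicate block 9319, 8851 and 7934 genes were called against 8670, 8085 and 7010, and of the receptors only the call of Ccrl2 in ACF against WT changed (0.043, edgeR adjusted p 0.0317). At 5 to 22 counts per library, Ccr8 is limited by depth.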
